A study of Mus musculus with 20 samples.

Results

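The 20 libraries of this series hold RNA from the aortic endothelium of female Apoe-/- mice, and they differ widely in the endothelial gene Pecam1. Pecam1, an adhesion molecule of endothelial cell junctions, was used to sort them. The 9 libraries with a Pecam1 level of 200 FPKM or more (fragments per kilobase of gene, scaled to the library's assigned reads) were called endothelium-rich, the 8 libraries under 100 FPKM endothelium-poor, and the 3 libraries between these limits were left out of the comparison. The comparison therefore holds 17 of 20 libraries. Pecam1 chose the classes, so its levels are given as a description with no test. Other endothelial genes come from the same cells as Pecam1, so their differences are not independent evidence that the classes differ in endothelium.

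All mice were Apoe-/- (strain B6.129P2-Apoetm1Unc/J) and had a 5/6 nephrectomy, a removal of kidney tissue, at 9 weeks of age. After 7 more weeks they had a single retro-orbital treatment, and tissue was taken 1 week later. With 4 mice each, the 5 groups were saline, HDL (high-density lipoprotein, 4 mg), HDL + LNA92a (20 mg/kg), HDL + LNA489 (20 mg/kg), or HDL with both inhibitors (40 mg/kg of LNA in total), called the dual group. Each LNA (locked nucleic acid) blocks the microRNA in its name, and no group received a control LNA. A library name gives the group and the number in the sample title, as in HDL 11, taken here as the mouse's (animal) number. Names with LNA92a or LNA489 alone are of mice that also received HDL. RNA was lysed off the vessel wall with a phenol reagent, so cells other than endothelium can enter, and in such bulk RNA fewer cells of a type and less RNA per cell cannot be told apart.

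The endothelium is the single cell layer that lines every vessel. In the aorta it is arterial, and it differs in its genes from the endothelium of capillaries, veins and lymph vessels. Endothelial cells make Vwf, a clotting factor, and Nos3, the enzyme that forms nitric oxide, and they keep their junctions closed with Pecam1 and Cdh5 (VE-cadherin). Under the endothelium of Apoe-/- mice lie plaques with lipid-loaded macrophages called foam cells, and outside the muscular wall lie fibroblasts, resident macrophages and the fat that surrounds the aorta, which in the mouse contains brown fat.

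Every treatment group held libraries of both classes. There were 1 rich and 2 poor libraries with saline, 2 rich and 1 poor with HDL, 2 and 2 with LNA92a, 1 and 2 with LNA489, and 3 and 1 in the dual group. The rich libraries, in order of Pecam1, were HDL 23, Saline 24, Dual 21, HDL 3, LNA92a 18, LNA92a 17, Dual 8, LNA489 19 and Dual 10. The poor ones were LNA489 7, Saline 2, Dual 15, LNA489 14, LNA92a 12, LNA92a 5, Saline 1 and HDL 4. Saline 9, LNA489 13 and HDL 11 lay between. Class went with the animal number. Every library numbered 17 or above was rich, and every poor library was numbered 15 or below. HDL 3, Dual 8 and Dual 10 were the rich libraries with lower numbers. An order of handling, if the numbers follow one, cannot be told apart from the classes. Poor libraries had 16.5 ± 2.71 M (mega) assigned reads and rich libraries 13.954 ± 3.06 M (SD, n = 8 and n = 9). That difference of -2.55 M gave a 2-sided exact permutation p of 0.0934 (adjusted p = 0.0934 over the 2 measures tested). Rich libraries had a read in 21339 ± 780 genes and poor ones in 20180 ± 1392 (exact permutation p = 0.0414, adjusted p = 0.0828). The 18S ribosomal gene Rn18s-rs5 took 10.0% ± 6.61 of the reads in rich and 9.32% ± 5.16 in poor libraries. Dual 10 and Saline 2 stood apart by genes of the adrenal cortex, with a mean of 12.3 and 13.0 (variance-stabilized) against at most 6.78 and 6.14 in the other libraries of their class. None of the 6 adrenal genes tested was called by limma or by voom, a limma fit on reads, and 0 had an unadjusted p under 0.05. Without both libraries the general and arterial endothelial, adipocyte, brown fat and resident macrophage counts given below were the same, foam cell genes higher were 9 in place of 7, and erythroid genes higher were 2 in place of 4. Capillary genes lower were 5 in place of 6. Apoe, the gene disrupted in all mice, was still listed above 0 in every library, at 15.1 ± 7.58 FPKM in rich and 5.43 ± 3.12 in poor libraries. A level per gene does not check the allele.

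The DNA just before the start of 5 of the genes described here is shown first, because genes with similarly large differences differ in it. The 5 stretches are 250 bases long, run 5′ to 3′ on the gene's strand up to the start site, and come from RefSeq (GRCm38.p6). They were chosen after the values were seen, to set 3 strongly rich-enriched genes that hold the 6 letters CAGGAA next to 1 equally enriched gene without it and next to Rgcc, a capillary gene that was lower in rich libraries. CAGGAA contains GGAA, the core that ETS factors such as Erg and Fli1 recognize, and capitals mark it on either strand. Cytl1 lies at chr5:37735269-37735518 (plus strand), Bmx at chrX:164258194-164258443 (minus), Clec14a at chr12:58269259-58269508 (minus), Gja5 at chr3:97032152-97032401 (plus, inside the longer gene span of GENCODE M21) and Rgcc at chr14:79301636-79301885 (minus).
Cytl1: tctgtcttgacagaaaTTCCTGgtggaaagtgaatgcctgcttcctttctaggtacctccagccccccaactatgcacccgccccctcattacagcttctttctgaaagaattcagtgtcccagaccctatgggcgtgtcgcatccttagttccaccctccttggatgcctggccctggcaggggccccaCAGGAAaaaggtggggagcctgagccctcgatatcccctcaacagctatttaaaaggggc
Bmx: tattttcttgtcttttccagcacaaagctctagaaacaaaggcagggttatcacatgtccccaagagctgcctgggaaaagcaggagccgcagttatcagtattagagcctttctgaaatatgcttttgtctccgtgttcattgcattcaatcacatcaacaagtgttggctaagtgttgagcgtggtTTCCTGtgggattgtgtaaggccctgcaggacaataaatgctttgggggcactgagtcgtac
Clec14a: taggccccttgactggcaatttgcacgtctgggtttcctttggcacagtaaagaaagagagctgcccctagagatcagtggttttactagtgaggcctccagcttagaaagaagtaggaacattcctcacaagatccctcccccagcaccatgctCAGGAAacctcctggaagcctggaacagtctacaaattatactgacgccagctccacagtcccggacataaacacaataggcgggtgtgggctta
Gja5: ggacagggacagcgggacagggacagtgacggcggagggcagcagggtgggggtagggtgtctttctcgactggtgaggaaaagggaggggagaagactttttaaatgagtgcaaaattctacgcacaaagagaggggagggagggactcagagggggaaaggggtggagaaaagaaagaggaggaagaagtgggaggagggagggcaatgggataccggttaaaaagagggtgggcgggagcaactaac
Rgcc: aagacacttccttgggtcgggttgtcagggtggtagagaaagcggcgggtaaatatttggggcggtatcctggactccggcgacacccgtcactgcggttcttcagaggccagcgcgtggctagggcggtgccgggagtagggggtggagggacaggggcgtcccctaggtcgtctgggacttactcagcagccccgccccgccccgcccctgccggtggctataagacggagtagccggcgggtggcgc

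Cytl1 held CAGGAA 2 times, Bmx and Clec14a once each, and Gja5 and Rgcc held no match. RefSeq gave such a stretch for 13 of the 25 pan-endothelial genes described below and for 10 of the 12 arterial genes. CAGGAA stood in 7 of the 13 (53.8%) and in 3 of the 10 (30.0%), and in 25.4% of 27025 mouse promoters of the same length. At least 2 copies of GGAA, which overlaps CAGGAA, were found in 84.6% and 80.0% of them against 76.9% of all promoters. CCGGAA, another ETS sequence, was in 7.69% and 10.0% against 12.2%. ACAAT, the core that SOX factors bind, was in 30.8% and 30.0% against 28.3%, and CACCC, which KLF factors bind, in 69.2% and 40.0% against 51.3%. Genes of the 2 lists with CAGGAA differed by 0.56 (Robo4, not called) to 3.70 (Cytl1). Those without it differed by -1.16 (Kdr) to 3.66 (Gja5). Whether the sequence has a part in these differences was not tested. All these motifs were searched on both strands, and a match is a description of letters, not of a bound site.

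Pecam1 (chr11:106654217-106750628, minus strand, GRCm38) ran from 245 FPKM through a median of 488 to 1009 in the rich libraries, and from 10.8 through 38.4 to 83.1 in the poor ones. Just inside the upper limit lay Dual 10 at 245 FPKM, and just outside it Saline 9 at 195. At the lower limit, LNA489 7 had 83.1 FPKM and HDL 11 had 120. LNA489 13, the third library between, had 190 FPKM. The classes were thus cut from a continuous range, and 2 of the 3 libraries between lie near the upper limit. With Rn18s-rs5 left out of the library totals, Saline 9 (203 FPKM) and LNA489 13 (201 FPKM) would be rich.

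**Figure D1:**
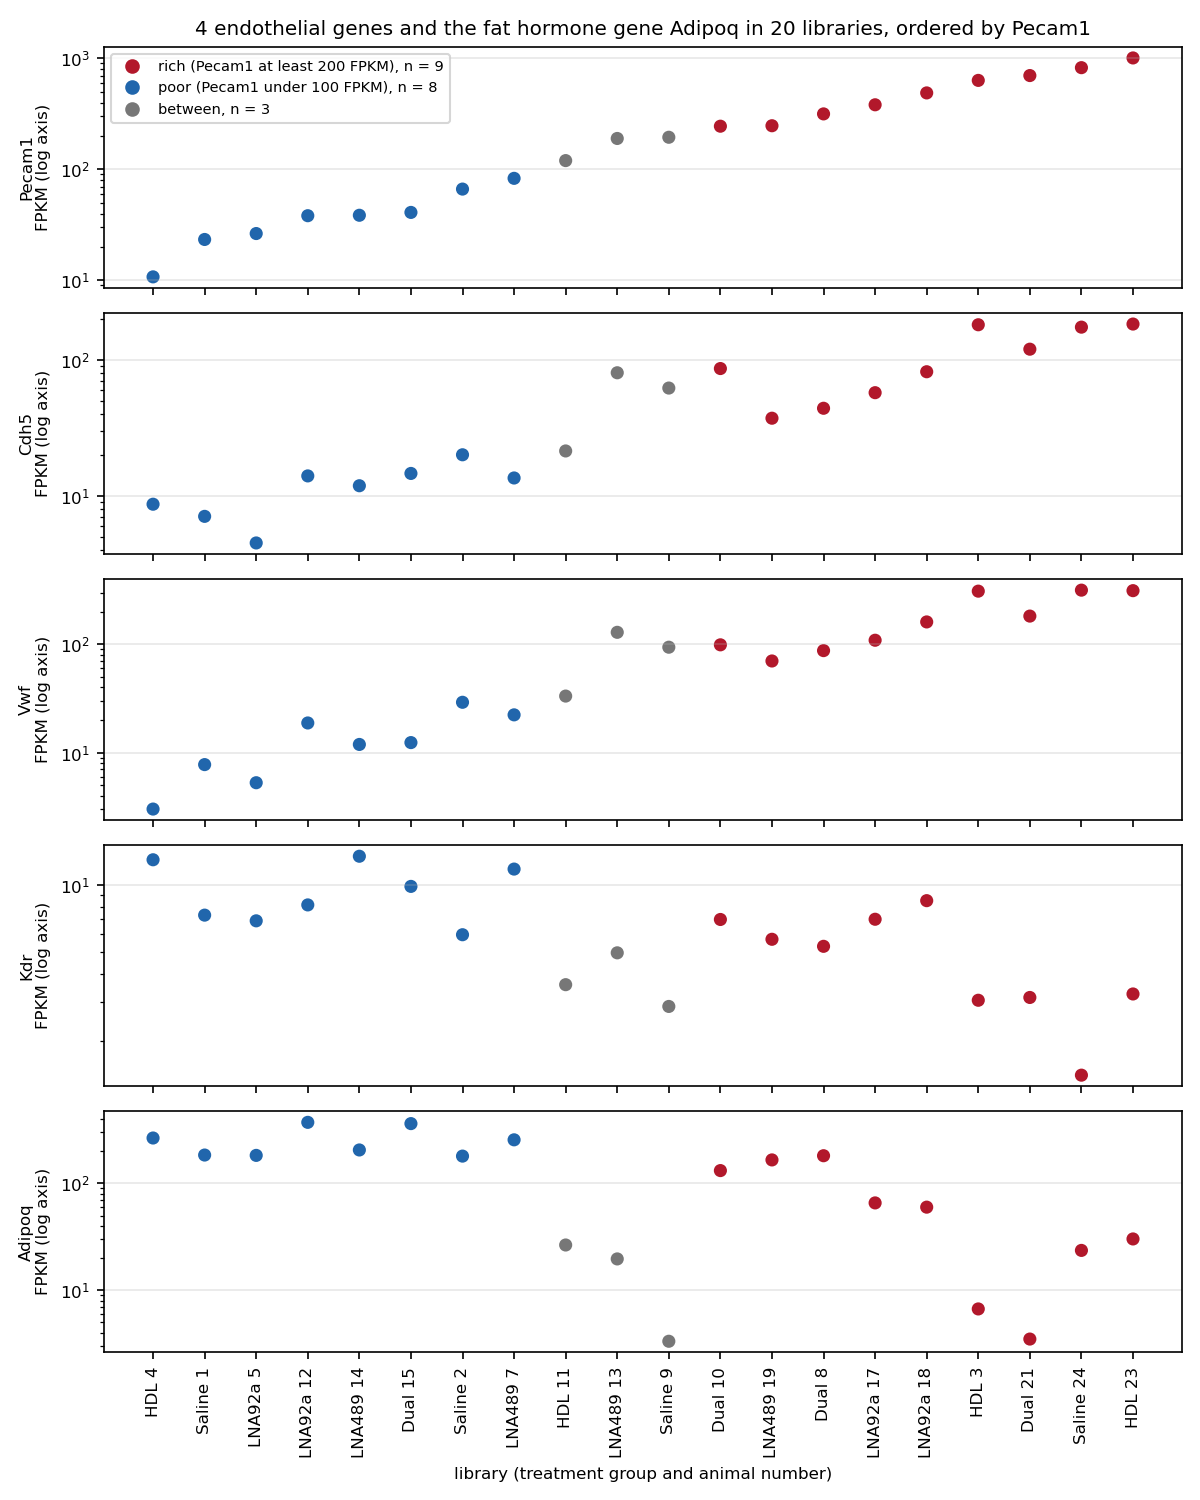
FPKM on log axes of Pecam1, Cdh5, Vwf, Kdr and Adipoq in the 20 libraries, 1 point each, ordered by Pecam1 from lowest (left) to highest and coloured by class. Cdh5 and Vwf rose along the order and their classes did not overlap, while Kdr and Adipoq were mostly lower on the right.

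Differences between classes were tested gene by gene with limma on variance-stabilized log2 counts, in 16847 genes other than Pecam1. Calls needed a p adjusted after Benjamini and Hochberg under 0.05. Of all genes, 30.9% were called (5213), with 2531 higher in rich libraries (15%) and 2682 lower (15.9%). The 2 classes did not overlap in 2.56% of all genes, in 2.07% with the rich libraries higher and in 0.493% with them lower. The counts of any gene group below are to be read against these shares. With treatment group as a covariate 4962 genes were called (29.5%), with 2433 higher (14.4%) and 2529 lower (15%). The split depended on scaling: on log2(FPKM + 0.1) 2446 genes were higher (14.5%) and 1633 lower (9.69%; 24.2% in all), with the median of all genes at 0.23, and after centring each library on its median 3101 were higher (18.4%) and 2261 lower (13.4%; 31.8% in all), against a median of 0.06 on the main scale. Leaving out 1 library gave 4237 (without Saline 24) to 5491 (without LNA489 19) calls. With Rn18s-rs5 left out of the totals that set the classes, 6158 genes were called. A limma fit of the slope on Pecam1 over all 20 libraries, with no classes, called 4933. Of the named genes called in the main fit, 13 were not called by the slope fit. They were Hey1, Meox2, Plpp3, Cav1, Cd36, Tagln, Adgre1, Mmp8, Ckm, Fos, Egr1, Junb and Cdc20. On the variance-stabilized scale differences of weakly expressed genes are compressed.

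General endothelial genes were higher in rich libraries. Of the 25 tested, 23 were higher and 1, Kdr, lower, with a median difference of 2.33 against 0.06 for all genes. In 20 of them the classes did not overlap. The summed FPKM of the list ran from 661 to 2690 in rich and from 102 to 321 in poor libraries. The same 23 and 1 were counted with treatment group as a covariate and on the FPKM scale. Robo4, a guidance receptor of vessels, was at 1.98 ± 1.02 FPKM in rich and 1.09 ± 0.614 in poor libraries (difference 0.56 ± 0.30 SE, limma adjusted p = 0.158).

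Cdh5, which seals endothelial junctions (chr8:104101625-104144511), ran from 37.3 FPKM through 86.5 to 184 in rich and from 4.51 through 12.7 to 20.1 in poor libraries. Its lowest rich library was LNA489 19 and its highest poor one Saline 2, so the classes were apart. The difference was 2.87 ± 0.29 (log2, SE; limma adjusted p = 3.78e-06). Cdh5 did not order the libraries as Pecam1 did. LNA489 13 and Saline 9, which lie between, had 80.5 and 62.1 FPKM and so exceeded the rich libraries LNA489 19 (37.3), Dual 8 (44.1) and LNA92a 17 (57.4), while HDL 11 had 21.4. Cdh5 stood at 14.0% to 35.3% of the Pecam1 level in rich libraries and at 16.3% to 80.8% in poor ones, highest in HDL 4. Pecam1 set the classes, so these shares depend on the rule and are a description only.

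Ptprb, the phosphatase VE-PTP that acts on Cdh5 and Tek (chr10:116275523-116389535), followed Pecam1 most closely of the genes with a mean of 5 FPKM or more. Over 20 libraries r of its variance-stabilized values with those of Pecam1 was 0.996. It ran from 121 through 245 to 499 FPKM in rich and from 5.41 through 17.3 to 43.2 in poor libraries. The difference was 3.73 ± 0.37 (limma adjusted p = 3.59e-06). A gene with so high an r must differ between classes cut by Pecam1. The p of Ptprb, and those of the genes next in likeness, are therefore not independent evidence. Next in likeness were Cytl1 (r = 0.984), Nos3 (0.983), Bmp6 and Notch4 (0.980 each), Rasgrf2 and Bmx (0.979 each), Fgd5, Vwf and Egfl7 (0.977 each). These correlations are descriptions over libraries that share their depth and tissue content. The lowest r values were those of Itpk1 (-0.868), R3hdm4, Mrps2 and Mrps15 (each -0.864) and Rars2 (-0.852), among them 2 genes of mitochondrial ribosomes and a mitochondrial tRNA synthetase.

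Vwf (chr6:125546774-125686679) ran from 70.2 through 161 to 316 FPKM in rich and from 3.02 through 12.2 to 29.2 in poor libraries. Its difference was 3.65 ± 0.39 (limma adjusted p = 6.26e-06) and was positive within all 5 treatment groups, from 2.18 to 6.27. Nos3 ran from 27.0 through 46.4 to 125 FPKM in rich and from 1.60 through 5.41 to 8.80 in poor libraries, with a difference of 3.37 ± 0.35 (limma adjusted p = 5.24e-06). Another gene shares 32.3% of the exonic bases of Nos3, so its reads are uncertain. Both genes separated the classes without overlap. Of the other list members, Clec14a, a C-type lectin of endothelium, differed by 3.14 ± 0.30, Mmrn2, an endothelial matrix protein, by 3.23 ± 0.35, Cldn5, a tight junction protein, by 2.35 ± 0.28, and S1pr1, the sphingosine-1-phosphate receptor, by 2.37 ± 0.24. The smallest differences among the members called higher were those of Emcn (1.42 ± 0.32), Flt1 (1.54 ± 0.33) and Esam (1.58 ± 0.23).

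**Figure D2:**
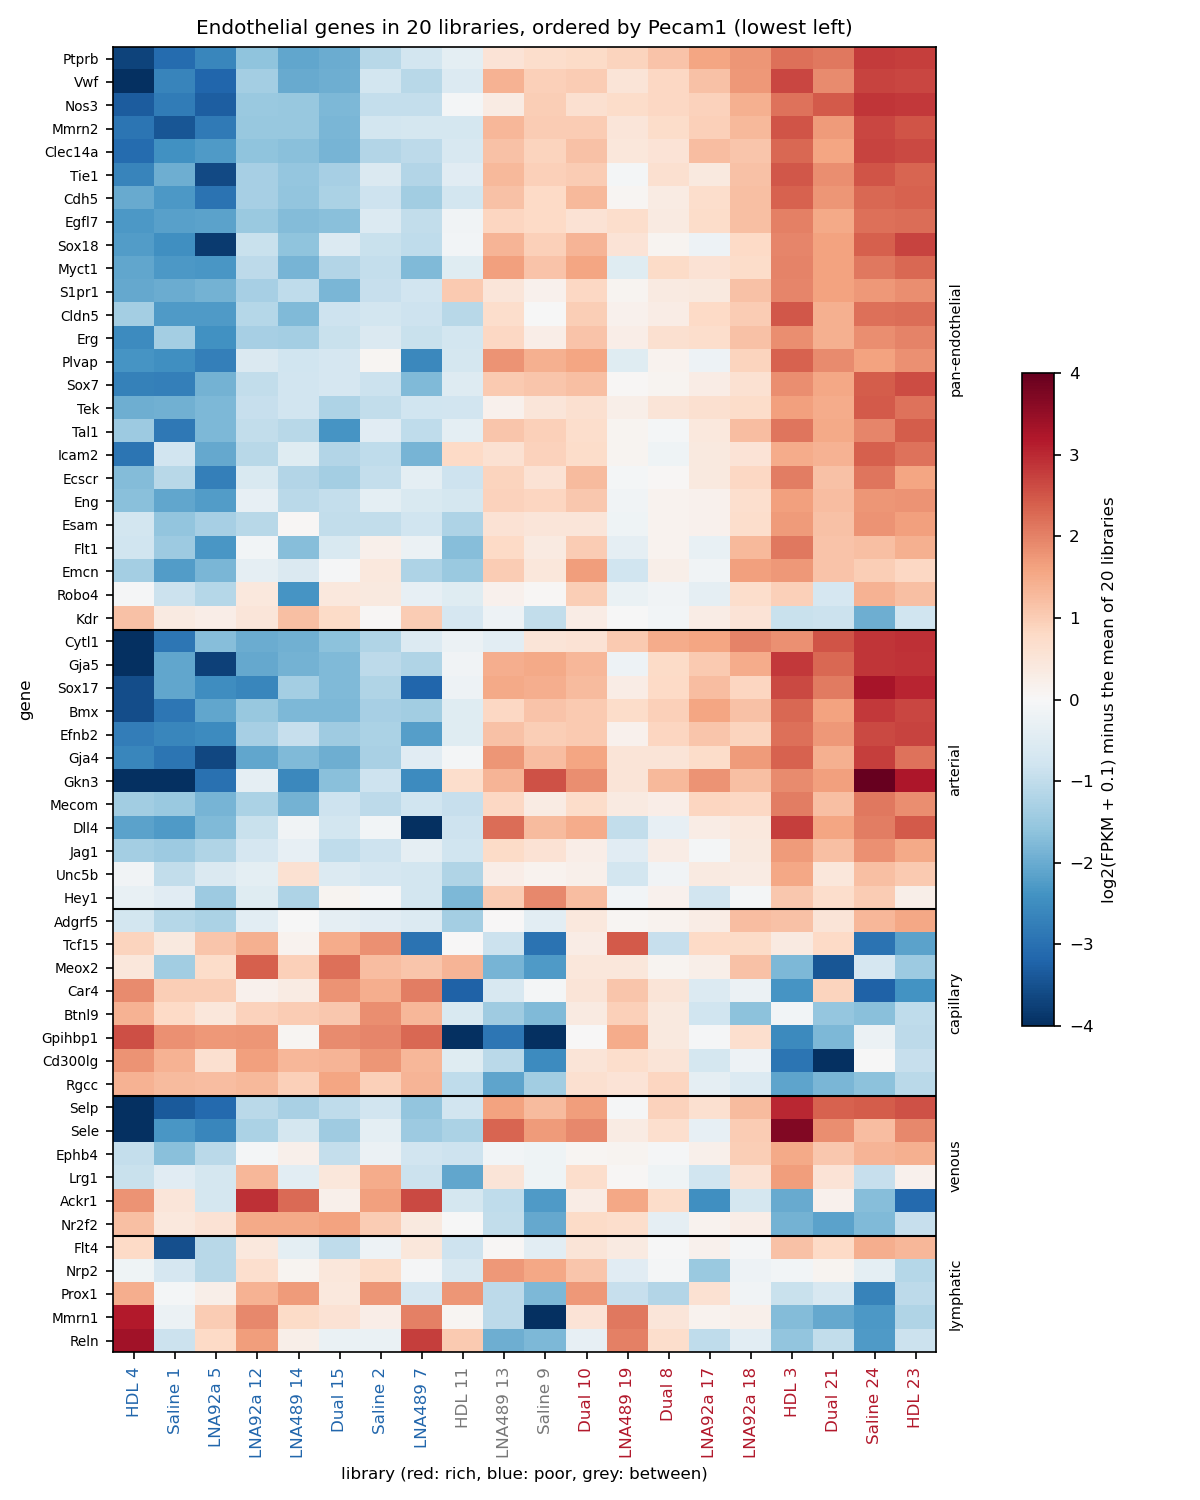
Heat map of the tested genes of 5 endothelial lists (rows, grouped by list and ordered by difference) in 20 libraries (columns, lowest Pecam1 on the left). Colour gives log2(FPKM + 0.1) minus the gene's mean over the libraries. General and arterial genes turn from blue to red from left to right, and most capillary genes run the other way.

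Kdr, the main receptor for VEGF on endothelium (chr5:75932827-75978458), ran against the other general endothelial genes. In the rich libraries it was at 1.40 FPKM in Saline 24, 3.04 in HDL 3, 3.13 in Dual 21, 3.24 in HDL 23, 5.30 in Dual 8, 5.71 in LNA489 19, 7.00 in Dual 10, 7.02 in LNA92a 17 and 8.50 in LNA92a 18. In the poor ones it was at 5.98 in Saline 2, 6.90 in LNA92a 5, 7.32 in Saline 1, 8.14 in LNA92a 12, 9.85 in Dual 15, 11.8 in LNA489 7, 13.0 in HDL 4 and 13.5 in LNA489 14. The classes overlapped, and the 4 libraries with the most Pecam1 had the 4 lowest Kdr levels among the rich ones. The difference was -1.16 ± 0.32 (limma adjusted p = 0.0105) and was negative in 4 of 5 treatment groups. The 3 libraries between had 2.85 (Saline 9), 3.57 (HDL 11) and 4.96 FPKM (LNA489 13), all below the lowest poor library. Kdr stood at 0.170% to 2.86% of the Pecam1 level in rich and at 9.00% to 121% in poor libraries. The divisor, Pecam1, also set the classes, so a lower share in rich libraries follows largely from the rule.

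All 12 arterial genes tested were higher in rich libraries, with a median difference of 2.93, and 8 separated the classes. Gja5, the connexin 40 of arterial endothelium (chr3:96904693-97077416), ran from 12.5 FPKM through 40.4 to 108 in rich and from 0.591 through 3.59 to 6.91 in poor libraries. Its difference was 3.66 ± 0.42 (limma adjusted p = 9.5e-06). Sox17, the transcription factor of arterial identity (chr1:4490931-4497354), ran from 5.29 through 10.4 to 43.1 FPKM in rich and from 0.277 through 0.815 to 1.82 in poor libraries (3.41 ± 0.34, limma adjusted p = 3.68e-06). In both genes LNA489 19 was the lowest rich library, and HDL 4 the lowest poor one.

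Cytl1, a secreted cytokine-like protein (chr5:37735519-37739820), was the most abundant of the arterial genes, at 278 through 664 to 1410 FPKM in rich and 6.96 through 53.5 to 128 in poor libraries. Its difference was 3.70 ± 0.42 (limma adjusted p = 1.03e-05). Bmx, a kinase of arterial endothelium, differed by 3.33 ± 0.30, Efnb2, the ephrin that marks arteries, by 3.10 ± 0.29, Gja4, connexin 37, by 3.04 ± 0.30, and Gkn3, a marker of arterial endothelium in the brain, by 2.81 ± 0.37. The Notch ligands Dll4 and Jag1 differed by 2.00 ± 0.42 and 1.44 ± 0.24. The smallest differences were those of Hey1, a Notch target (0.57 ± 0.18, limma adjusted p = 0.0225), and of Unc5b, a netrin receptor (0.67 ± 0.23, limma adjusted p = 0.0325). The call of Unc5b was lost without any 1 of 9 libraries (Saline 1, Saline 2, Saline 24, HDL 3, HDL 23, LNA92a 12, LNA92a 17, LNA489 7 or Dual 15), where its difference was 0.56 to 0.67.

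Adra2a, the alpha-2A adrenergic receptor (chr19:54044151-54048982), had the largest difference of any called gene with a mean of 5 FPKM or more. It ran from 6.46 through 16.5 to 79.7 FPKM in rich and from 0.016 through 0.738 to 3.41 in poor libraries, and the classes did not overlap. Saline 24 and HDL 23 (56.7 FPKM) were well above the other rich libraries. The difference was 3.86 ± 0.47 (limma adjusted p = 1.5e-05) and was positive in all 5 treatment groups. Also among the 10 largest were Syt15, a synaptotagmin (3.36 ± 0.40), and Selp, P-selectin (3.34 ± 0.41).

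**Figure D3:**
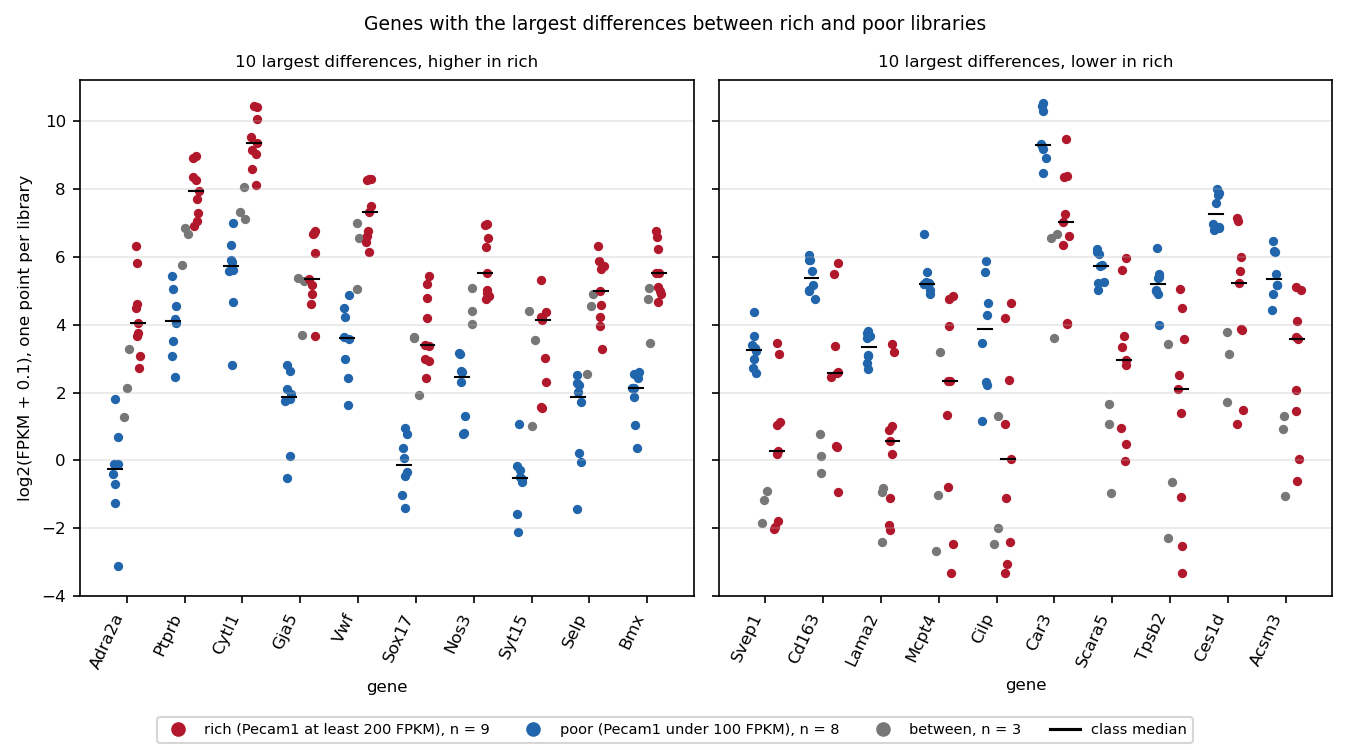
Values of log2(FPKM + 0.1) in each library for the 10 genes with the largest differences in each direction, with poor (blue), between (grey) and rich (red) libraries side by side and class medians as black bars. The classes stand apart in all 10 genes on the left, while on the right they overlap in all but Mcpt4 and the 3 grey libraries lie low.

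Among transcription factors of endothelium, 10 of the 15 tested were higher and 3 lower in rich libraries (median difference 1.03). Erg, an ETS factor that keeps endothelial identity, ran from 12.5 through 23.5 to 41.9 FPKM in rich and from 1.74 through 4.04 to 6.96 in poor libraries (2.33 ± 0.23, limma adjusted p = 3.59e-06). Gata2 differed by 2.39 ± 0.25, Sox18 by 2.53 ± 0.34, Sox7 by 2.30 ± 0.31 and Tal1 by 2.20 ± 0.31. The related ETS factors Fli1 (0.96 ± 0.14) and Elk3 (1.12 ± 0.17) differed less. Ets1 differed by 0.67 ± 0.32 (limma adjusted p = 0.114) and Klf4 by 0.29 ± 0.25 (adjusted p = 0.403). On log2(FPKM + 0.1) 1 factor was lower. The 3 lower on the main scale were Nr2f2, the factor of venous identity (-1.59 ± 0.37), Prox1, the factor of lymphatic identity, and Meox2, a factor of capillary endothelium. Meox2 differed by -1.02 ± 0.37 (limma adjusted p = 0.0396), and by -0.83 to -1.01 without LNA92a 5, LNA489 7, Dual 15 or any library of the next sentence, each of which ended its call. Only Nr2f2 of these 3 was called without Saline 2, Saline 24, HDL 3, HDL 23, LNA92a 12 or Dual 21.

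The receptors of VEGF, angiopoietin and Notch gave 6 higher and 1 lower gene of 11 (median 0.97). Tie1 and Tek, the angiopoietin receptor pair, were among those higher. Tek ran from 37.3 through 53.8 to 174 FPKM in rich and from 8.14 through 14.8 to 18.7 in poor libraries (2.27 ± 0.25, limma adjusted p = 7.32e-06), and Tie1 differed by 2.91 ± 0.34. Notch4, the Notch receptor of endothelium, differed by 3.24 ± 0.34 and Notch1 by 1.96 ± 0.26. Flt1, a VEGF receptor that holds VEGF away from Kdr, ran from 2.25 through 6.54 to 12.8 FPKM in rich and from 0.504 through 1.75 to 3.34 in poor libraries. So 2 receptors for the same ligand differed in opposite directions, with Flt1 higher by 1.54 ± 0.33 (limma adjusted p = 0.00223) and Kdr lower. Flt4, the receptor for Vegfc, differed by 0.97 ± 0.38 (limma adjusted p = 0.0623). Flt4 was called higher in 6 of 28 alternatives, among them fits without HDL 4 (1.16) or LNA489 7 (1.11). Without Saline 1 a second receptor was called lower and the list median was 0.61.

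Of the ligands of these receptors, 5 of 10 were higher and 1 lower (median 0.37). Dll1, a Notch ligand, differed by 2.35 ± 0.36 (limma adjusted p = 0.000157), with 20.6% of its exonic bases shared with another gene. Vegfb, a VEGF that binds Flt1, ran from 7.67 through 15.9 to 34.9 FPKM in rich and from 23.7 through 35.2 to 71.8 in poor libraries (-1.17 ± 0.23, limma adjusted p = 0.00131).

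Genes of flow sensing and nitric oxide were mixed. Of 10 tested, 3 were higher (Nos3, Klf2 and Cav1) and 2 lower, with a median of 0.19. Klf2, the factor induced by laminar flow, ran from 47.8 through 78.6 to 177 FPKM in rich and from 24.6 through 35.6 to 101 in poor libraries, where LNA489 14 was highest. The classes overlapped, and the difference was 1.03 ± 0.24 (limma adjusted p = 0.00393). It was positive in 4 of 5 treatment groups. Cav1, the coat protein of caveolae, differed by 0.53 ± 0.18 (limma adjusted p = 0.0289). Its call was lost without Saline 2 (0.43), HDL 23 (0.45) or Saline 24 (0.47), and with treatment group as a covariate, where 2 of the 10 genes were higher. With Rn18s-rs5 left out of the totals that set the classes, Cav1 differed by 0.29 (limma adjusted p = 0.35). Thbd, the anticoagulant thrombomodulin, was at 54.1 ± 17.5 FPKM in rich and 53.3 ± 27.0 in poor libraries (-0.05 ± 0.23, limma adjusted p = 0.885). Aqp1, a water channel, was lower by -1.31 ± 0.36 and Plpp3, a phosphatase that removes lysophosphatidic acid, by -0.76 ± 0.17.

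Of 11 adhesion and chemokine genes, 8 were higher (median 1.00), and Ccl2, Cxcl1 and Cxcl16 were not called. Vcam1, which holds leukocytes to the endothelium, ran from 16.8 through 50.7 to 84.7 FPKM in rich and from 2.94 through 6.09 to 13.0 in poor libraries (2.63 ± 0.30, limma adjusted p = 9.5e-06). Selp ran from 9.57 through 31.7 to 79.7 and from 0.271 through 3.57 to 5.68 FPKM. Neither gene overlapped between classes. Sele, E-selectin, differed by 2.43 ± 0.39, Cx3cl1, fractalkine, by 1.96 ± 0.31, and Icam1 by 1.80 ± 0.24.

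Capillary genes ran mostly the other way. Of the 11 in the list, 8 were tested. Aplnr, Esm1 and Apln were below the mean of 0.5 FPKM that testing required. In rich libraries 6 of the 8 were lower and 1 higher, with a median of -1.22. The lower ones were 5 on log2(FPKM + 0.1), with limits of 300 and 50 FPKM and in the slope fit. They were also 5 in fits without 1 library, such as Saline 24 or Dual 21. With a mean of at least 2 FPKM, 4 were tested, with 3 lower and 1 higher. Rgcc, a cell cycle regulator of capillary endothelium (chr14:79288756-79301645), ran from 9.96 through 29.9 to 78.6 FPKM in rich and from 83.2 through 106 to 130 in poor libraries, with no overlap in FPKM. Its difference was -1.89 ± 0.37 (limma adjusted p = 0.00116). Cd300lg, a lectin of capillaries, ran from 0.023 through 1.73 to 3.30 FPKM in rich and from 3.18 through 5.32 to 7.19 in poor libraries (-1.71 ± 0.34, limma adjusted p = 0.00135). Gpihbp1, which carries lipoprotein lipase to the capillary surface, was lower by -1.70 ± 0.36, although LNA489 14 had only 1.67 FPKM among the poor libraries. Btnl9 differed by -1.32 ± 0.26 and Car4, a surface carbonic anhydrase, by -1.12 ± 0.31. Both were weakly expressed, at no more than 1.82 and 3.77 FPKM in any library. Adgrf5, an adhesion receptor, was the higher one (1.20 ± 0.20, limma adjusted p = 0.000337). Cd36, the fatty acid transporter shared by capillaries, fat cells and macrophages, was at 128 ± 60.6 FPKM in rich and 210 ± 66.7 in poor libraries (-0.96 ± 0.27, limma adjusted p = 0.0121). Genes of fat, given below, were lower in the same libraries, and their part in these differences was not tested.

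Venous genes were split. Selp, Sele and Ephb4, the ephrin receptor of veins (1.23 ± 0.24), were higher in rich libraries, and Nr2f2 and Ackr1, a chemokine receptor of venules, were lower. Selp and Sele are also adhesion genes that inflamed arteries use. Ackr1 differed by -1.21 ± 0.33 (limma adjusted p = 0.00917) and shares 25.7% of its exonic bases with another gene. Of the 5 lymphatic genes tested, Prox1 and Mmrn1 were called lower on the variance-stabilized scale, and neither was on log2(FPKM + 0.1) (adjusted p = 0.0684 and 0.0508) or log2(FPKM + 1). Pdpn and Ccl21a were not tested. Reln, not called in the main fit, was called lower in 8 of 28 alternatives. Among these were treatment group as a covariate (-1.78, limma adjusted p = 0.0348) and limits of 300 and 50 FPKM (-1.97, limma adjusted p = 0.034). Leaving out 1 library gave Reln differences of -2.02 to -1.32. Flt4 ran the other way and was called higher in 6 of 28 alternatives, as given above. Prox1 had a median of 0.241 FPKM in rich and 1.16 in poor libraries (-1.22 ± 0.42, limma adjusted p = 0.0318), and Mmrn1 at 3.06 ± 3.44 and 7.92 ± 7.14 (-1.54 ± 0.54, limma adjusted p = 0.0378). Both calls were lost without Saline 24, HDL 3, HDL 4, HDL 23, LNA92a 12 or Dual 21, where Prox1 differed by -0.97 to -1.19 and Mmrn1 by -1.25 to -1.46. Prox1 was also lost without Saline 2 (-1.10) or LNA489 14 (-1.15), and Mmrn1 without LNA92a 5 (-1.51) or LNA489 7 (-1.42).

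**Figure D4:**
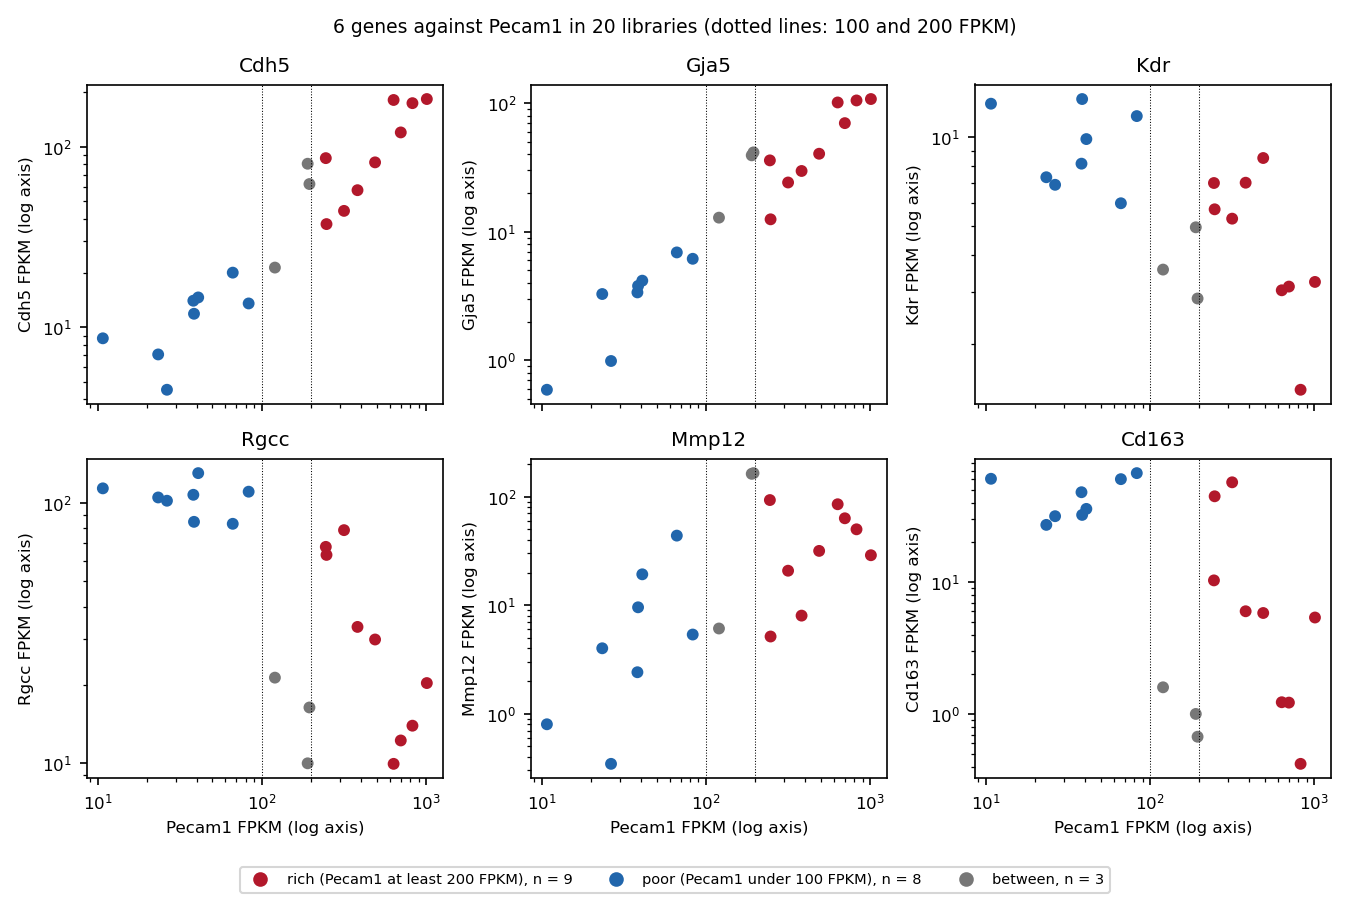
FPKM of 6 genes against Pecam1 FPKM in 20 libraries (both axes log, dotted lines at 100 and 200 FPKM). Cdh5 and Gja5 climb with Pecam1, Kdr and Rgcc fall towards the right, and the 3 grey libraries have Cd163 levels of 0.674 to 1.60 FPKM, below every poor library.

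Genes of the TGF-beta pathway and of mesenchymal transition gave 7 higher and 3 lower of 15 (median 0.33). The higher ones held the endothelial receptors and inhibitors: Eng, a coreceptor, differed by 1.90 ± 0.27, Acvrl1, the receptor ALK1, by 1.71 ± 0.23, and the inhibitory factors Smad7 and Smad6 by 2.10 ± 0.28 and 1.95 ± 0.31. The classes did not overlap in FPKM in any of these 4. The lower ones were Tgfb3, a ligand (-1.19), Cdh2, N-cadherin (-1.63), and Snai1, a factor of mesenchymal transition (-0.66, limma adjusted p = 0.048). On log2(FPKM + 0.1) 2 were lower. The related factors Snai2, Twist1 and Zeb1 were not called.

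Matrix genes of the inner wall were split as well. Of 12 genes of elastic fibres and basement membrane, 6 were higher and 4 lower (median 0.82). Eln, elastin, ran from 54.6 through 141 to 454 FPKM in rich and from 7.63 through 18.0 to 47.3 in poor libraries (2.75 ± 0.39, limma adjusted p = 7.68e-05). Lama5, a laminin chain of the arterial basement membrane, differed by 1.99 ± 0.28, Emilin1 by 1.58 ± 0.26 and Hspg2, perlecan, by 1.37 ± 0.25. The 4 lower genes were Fbn1 (-1.69), Loxl1 (-1.84), Nid1 (-1.59) and Lama4 (-1.20).

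Contractile smooth muscle genes did not follow the classes. Of 12 tested, only Tagln was called (0.96 ± 0.30, limma adjusted p = 0.0228), and 67.9% of its exonic bases are shared with another gene. Without LNA92a 18, 1 gene, Tpm2, was called lower as well. It was also lower with Rn18s-rs5 left out of the totals that set the classes (-1.28, limma adjusted p = 0.0438). Acta2, smooth muscle actin, was at 71.5 ± 65.6 FPKM in rich and 39.6 ± 25.1 in poor libraries (0.49 ± 0.42, limma adjusted p = 0.385). Myh11, smooth muscle myosin, was at 6.84 ± 3.35 and 13.4 ± 17.4 FPKM (-0.57 ± 0.48, limma adjusted p = 0.391).

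Fat genes were lower in rich libraries throughout. All 13 adipocyte genes were called lower, with a median of -2.34, and so were 10 of 12 brown fat genes (median -2.01). Adipoq, the fat hormone adiponectin (chr16:23146536-23158028), ran from 3.49 through 60.0 to 182 FPKM in rich and from 180 through 231 to 373 in poor libraries. Dual 8, at 182 FPKM, was the rich library that reached into the poor range. The difference was -2.61 ± 0.62 (limma adjusted p = 0.00412). Ucp1, the uncoupling protein of brown fat, ran from 12.7 through 120 to 905 and from 188 through 582 to 1229 FPKM (-2.30 ± 0.73, limma adjusted p = 0.0229; 0.0536 with treatment group as a covariate). The summed FPKM of the adipocyte list ran from 142 to 2587 in rich and from 2572 to 4863 in poor libraries. Adrb3, the adrenergic receptor of fat, separated the classes on the variance-stabilized scale (-2.34 ± 0.39), with 24.9% of its exonic bases shared with another gene. Car3, a carbonic anhydrase abundant in fat, and Ces1d, a lipid esterase, were among the 10 largest lower genes, at -2.85 ± 0.62 and -2.78 ± 0.69.

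Oxidative phosphorylation genes moved with fat. All 14 tested were lower in rich libraries (median -1.55, range -1.83 to -1.37), and Uqcrc1 was listed at 0 throughout. Atp5a1, a subunit of the ATP synthase, ran from 85.2 through 120 to 335 FPKM in rich and from 243 through 352 to 480 in poor libraries (-1.41 ± 0.30, limma adjusted p = 0.0021). The share of this difference that comes with fat was not tested.

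Fibroblast genes were lower too, 12 of 13, with a median of -1.98. Pdgfra, a growth factor receptor of fibroblasts, ran from 0.929 through 2.26 to 16.3 FPKM in rich and from 10.7 through 17.3 to 29.6 in poor libraries (-2.50 ± 0.49, limma adjusted p = 0.00132). LNA489 19 and Dual 8 (13.7 FPKM) were the rich libraries inside the poor range. Col1a1 differed by -1.98 ± 0.42 and Col3a1 by -1.81 ± 0.36. Svep1 (-2.95 ± 0.67), Lama2, a laminin chain (-2.91 ± 0.63), Cilp (-2.85 ± 0.89) and Scara5, a ferritin receptor (-2.84 ± 0.67), were among the 10 largest lower genes. Of 6 genes of mesothelium, the sheet that covers body cavities, 5 were lower (median -1.76), and 3 on log2(FPKM + 0.1). That count was 2 without Saline 24, HDL 4, LNA489 14 or Dual 21, and 3 without HDL 3, HDL 23, LNA92a 5 or Dual 15.

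Macrophage genes split by state. All 11 genes of resident macrophages were lower in rich libraries (median -1.46), and 7 of 11 foam cell genes were higher (median 1.40), with the other 4 (Spp1, Lgals3, Ctsb and Cd68) not called. Cd163, a haemoglobin scavenger receptor of resident macrophages (chr6:124304656-124330527), ran from 0.420 through 5.83 to 57.0 FPKM in rich and from 27.1 through 41.9 to 66.9 in poor libraries. The classes overlapped through Dual 8 (57.0) and LNA489 19 (44.7). The difference was -2.92 ± 0.69 (limma adjusted p = 0.0042). Lyve1, a hyaluronan receptor, differed by -2.24 ± 0.60, F13a1, a clotting transglutaminase, by -2.27 ± 0.47, Mrc1, the mannose receptor, by -1.74 ± 0.38 and Folr2 by -1.45 ± 0.27, the last with 63.1% of its exonic bases shared with another gene. On log2(FPKM + 0.1) 8 of the 11 were called lower.

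Of the foam cell genes, Mmp12, a macrophage elastase (chr9:7344381-7369499), ran from 5.14 through 31.6 to 93.1 FPKM in rich and from 0.345 through 4.69 to 43.8 in poor libraries (2.47 ± 0.69, limma adjusted p = 0.0108). Itgax, the integrin CD11c, differed by 2.04 ± 0.55 and Cd9, a tetraspanin, by 0.90 ± 0.19. Gpnmb, a lysosomal glycoprotein, was at 341 ± 228 FPKM in rich and 125 ± 152 in poor libraries (1.90 ± 0.64, limma adjusted p = 0.0304). Its call was lost without Saline 24, HDL 3, HDL 4, LNA92a 5, LNA92a 12 or Dual 21, where it differed by 1.54 to 1.84. Classes overlapped in every foam cell gene named here. The 2 libraries between with the most Pecam1 exceeded all rich ones, with Mmp12 at 165 FPKM in Saline 9 and 162 in LNA489 13.

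General macrophage genes gave no single direction. Of 12, 1 was higher (Mpeg1, a perforin of macrophages) and 3 were lower, with a median of 0.31. On log2(FPKM + 0.1) 1 was lower. Lyz2, lysozyme, was at 2274 ± 1855 FPKM in rich and 1139.6 ± 729 in poor libraries (0.67 ± 0.40, limma adjusted p = 0.208). Ccr2, the chemokine receptor of monocytes, ran from 1.09 through 1.90 to 4.08 FPKM in rich and from 3.45 through 6.09 to 13.0 in poor libraries (-1.57 ± 0.22, limma adjusted p = 6.62e-05). Csf1r, the growth factor receptor of macrophages, was lower by -0.77 ± 0.21, a call lost on log2(FPKM + 0.1) (-0.62, adjusted p = 0.09). Adgre1, the macrophage receptor F4/80, was the third (-0.67 ± 0.25, limma adjusted p = 0.0487), and its call was lost in 19 of 28 alternatives. Among these were fits without Saline 1, Saline 2, Saline 24, HDL 3, HDL 23, LNA92a 12, LNA92a 17, LNA92a 18, LNA489 7, LNA489 19, Dual 15 or Dual 21, where Adgre1 differed by -0.55 to -0.70. Mpeg1 differed by 1.43 ± 0.47 (limma adjusted p = 0.026), and its call was lost without HDL 4 (1.24), LNA92a 5 (1.21), LNA92a 12 (1.33) or Dual 21 (1.29).

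Proteases of mast cells were lower in rich libraries. Mcpt4 (chr14:56059629-56062313) ran from 0 in Dual 21 through 4.93 to 28.6 FPKM in rich and from 30.2 through 37.0 to 102 in poor libraries, with no overlap (-2.87 ± 0.57, limma adjusted p = 0.00132). Tpsb2, a tryptase, ran from 0 through 4.23 to 33.0 and from 15.8 through 37.3 to 76.5 FPKM (-2.78 ± 0.58, limma adjusted p = 0.00189). Both were negative in all 5 treatment groups. They entered through the size of their difference and not through a list of mast cell genes.

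In the main limma fit and by voom, none of 10 T and NK cell genes was called (median 0.63). The same held for 10 B and plasma cell genes (median 0.09). An unadjusted p under 0.05 was reached by 2 and 0 of them. Nkg7, a granule protein of T and NK cells, had a difference of 0.66 ± 0.25 (limma adjusted p = 0.0515) and was called higher on log2(FPKM + 0.1), on log2(FPKM + 1) and after centring on the median, where no other member was. It was also called without LNA92a 18 (0.77), Dual 8 (0.74) or Dual 15 (0.72). Without Saline 1, 2 T and NK genes were called higher, and 1 was without LNA92a 17, LNA92a 18, Dual 8 or Dual 15. Of 10 erythroid and platelet genes, 4 were higher (median 0.94; 3 with treatment group as a covariate), all of red cells: Hbb-bs, the adult beta globin, ran from 230 through 401 to 2198 FPKM in rich and from 29.9 through 115 to 518 in poor libraries (2.03 ± 0.58, limma adjusted p = 0.0128). Globin genes are near-identical copies, so their reads are uncertain. The count of genes called higher in that list was 2 without HDL 4, HDL 23, LNA92a 12, LNA92a 18, LNA489 7 or Dual 21. Of 6 neutrophil genes, Mmp8, a collagenase, was called higher (1.02 ± 0.36, limma adjusted p = 0.0367). The call was lost with treatment group as a covariate (0.84, adjusted p = 0.0922). It was also lost without Saline 1, Saline 24, HDL 3, HDL 4, LNA92a 5, LNA92a 12, LNA92a 18, LNA489 7, Dual 10 or Dual 21, where Mmp8 differed by 0.88 to 1.04. Ckm, the muscle creatine kinase, was the 1 striated muscle gene of 15 called, lower by -1.46 ± 0.52 (limma adjusted p = 0.0405). All 15 had a difference below 0, with a median of -1.09. Ckm was not called with treatment group as a covariate (-1.21, adjusted p = 0.0576) or on log2(FPKM + 0.1) (adjusted p = 0.0664). The count of striated muscle genes was 3 without HDL 4, 4 without LNA92a 5, 5 without LNA92a 18 and 0 without Saline 2, Saline 24, HDL 3, HDL 23, LNA92a 12, LNA92a 17, LNA489 7, LNA489 14, Dual 10, Dual 15 or Dual 21.

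Of the 11 genes of neurons and Schwann cells only 4 were tested. Tubb3, a tubulin of neurons, was higher (1.44 ± 0.31, limma adjusted p = 0.00229) and Mbp, a myelin protein, lower (-0.88 ± 0.20, limma adjusted p = 0.00334). A second gene was lower without LNA489 14, LNA489 19 or Dual 8.

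Immediate early genes, which tissue handling can induce, gave 1 higher and 3 lower of 12 (median 0.06), and 1 higher and 1 lower on log2(FPKM + 0.1). Fos ran from 2.00 through 7.27 to 16.4 FPKM in rich and from 7.94 through 24.1 to 27.3 in poor libraries (-1.47 ± 0.31, limma adjusted p = 0.00211), and Egr1 differed by -1.03 ± 0.28, with its call lost on log2(FPKM + 0.1) (adjusted p = 0.0505). Junb, a subunit of the AP-1 factor and the third gene called lower, differed by -0.60 ± 0.22 (limma adjusted p = 0.0476), and its call was lost in 20 of 28 alternatives. Among these were fits without Saline 1, Saline 2, Saline 24, HDL 4, LNA92a 5, LNA92a 12, LNA92a 18, LNA489 7, LNA489 19, Dual 8, Dual 10 or Dual 21, where Junb differed by -0.50 to -0.62. Hspa1a, a heat shock chaperone, was higher by 1.35 ± 0.29 (limma adjusted p = 0.00215). Of 12 cell cycle genes, only Cdc20 was called, higher (0.97 ± 0.29, limma adjusted p = 0.0155), and 3 were without Saline 1.

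**Figure D5:**
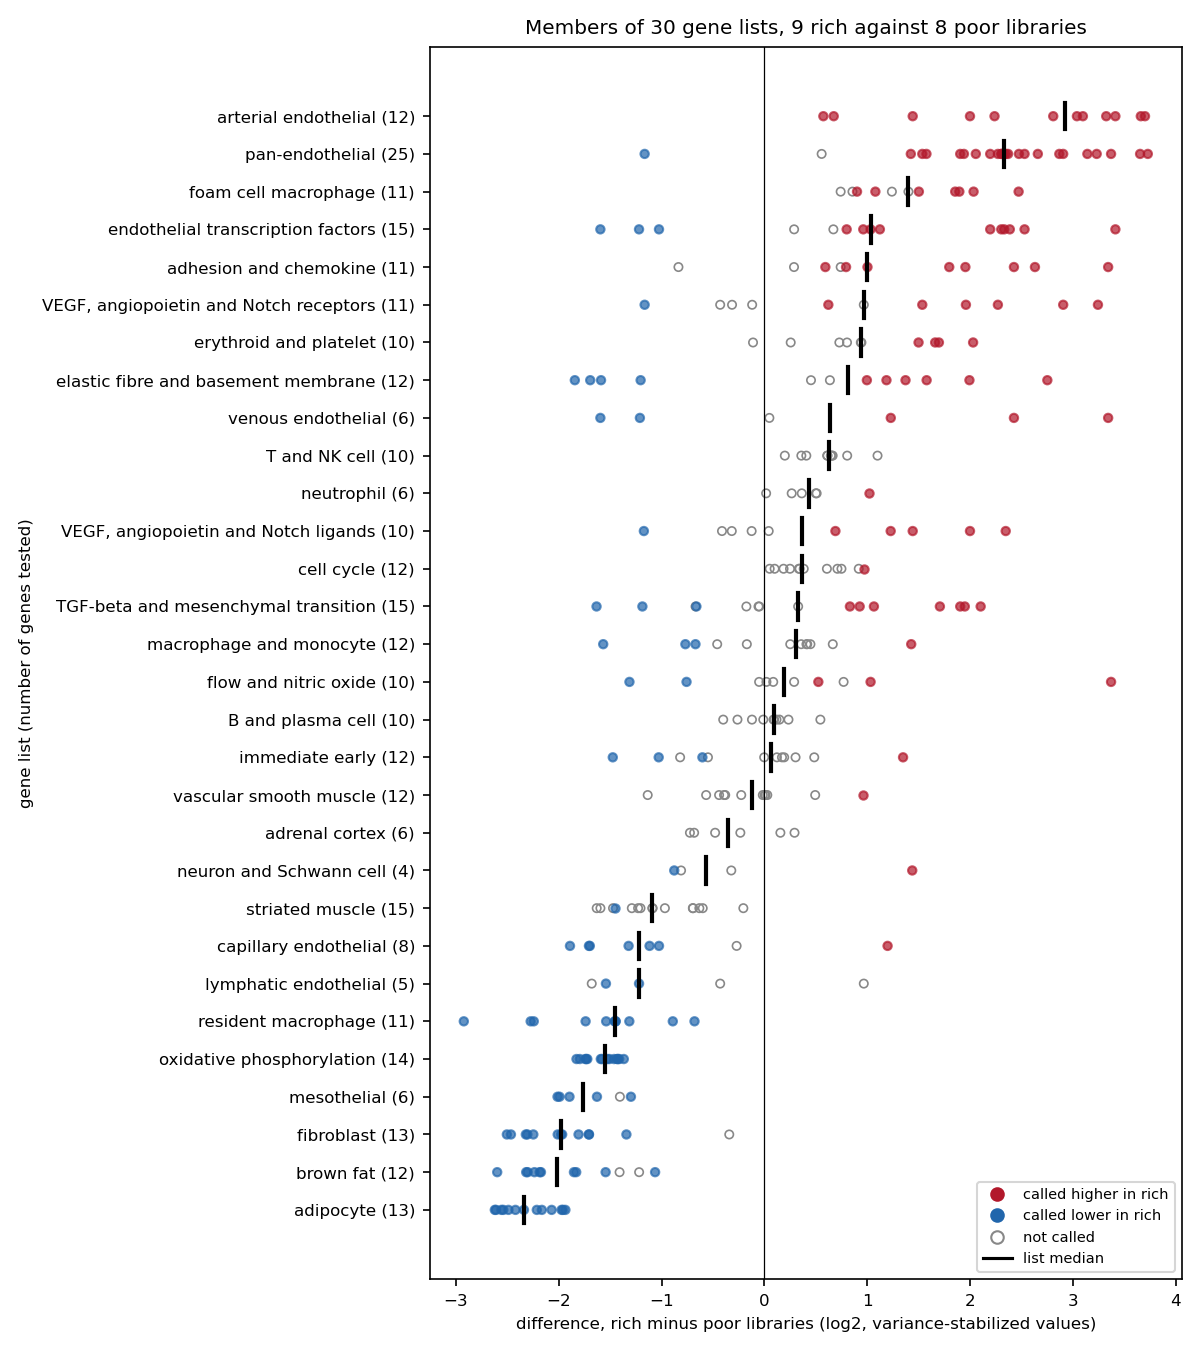
Difference of each tested member of 30 gene lists, rich minus poor libraries on the variance-stabilized log2 scale, with 1 row per list ordered by median (black bar), called genes filled and others open. Arterial genes lie at the right end with a median of 2.93 and adipocyte genes at the left with -2.34.

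The 3 libraries between the limits did not lie midway. Of the 2682 genes lower in rich libraries, 79.2% in Saline 9, 71.4% in HDL 11 and 67.4% in LNA489 13 were at or below the mean of the rich libraries. Of the 2531 genes higher in rich libraries, 47.4%, 36.6% and 55.2% lay between the class means, and 45.8%, 38.5% and 35.6% at or above the rich mean. Their mean over adipocyte genes was 7.19, 8.77 and 8.66 (variance-stabilized), against 9.81 in rich and 12.1 in poor libraries. Their mean over resident macrophage genes was 7.02, 7.29 and 7.75, against 8.18 and 9.81. Over pan-endothelial genes they had 10.2, 9.05 and 10.5, against 10.9 and 8.65. So the libraries between were lower than the average rich library in fat and resident macrophage genes and lower in endothelial genes too. Foam cell genes had a mean of 13.7 in Saline 9 and 13.8 in LNA489 13, above the highest rich library (12.8), and of 10.1 in HDL 11. HDL 11 had a B and plasma cell mean of 12.1, above the highest library of either class (9.99).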

How the data were processed

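The authors deposited variance-stabilized counts on a log2 scale for 20442 genes and FPKM for 32081 genes. The submitters' processing notes list cutadapt 1.16, STAR 2.5.3a, FastQC, featureCounts 1.15.29, DESeq2 1.18.1 and build GRCm38.p5, without roles. The strand of counting and the annotation release are not given in the sources used here, so genes that share over 20% of their exonic bases with another gene are marked as uncertain. FPKM divides by all assigned reads, so a gain of one cell type's RNA lowers the values of others.

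Classes were formed from Pecam1 FPKM (200 or more against under 100). Limma 3.58.1 in R 4.3.3 compared 9 with 8 libraries on the log2 values, with a mean-variance trend, 15 residual degrees of freedom and genes of at least 0.5 FPKM on average over 20 libraries. Whole reads recovered from FPKM and gene length (100% within 0.1 of a whole number, in genes up to 3000 bases and 1000 reads) gave the depth of 11.6 to 21.4 M and a voom fit. The fit was tested on simulated data.

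The members and the 30 gene lists (329 genes, 307 tested; some genes are in 2 lists) were chosen with earlier results of these data known. Genes drawn for naming were the 10 largest differences each way among called genes of at least 5 FPKM, and up to 4 per list by p. Added to these were all members of the endothelial, flow and transcription factor lists, and a fixed set of marker genes. The 10 highest and 5 lowest correlations with Pecam1 were added too. Not all of these appear in the text: Acsm3, Mecom, Plvap and Nrp2 are among those left out. Other list members with values were chosen after their values were seen. Coordinates are 1-based, from GENCODE M21 (GRCm38). Alternatives were other scales, filters, class limits, treatment group as covariate, a slope on Pecam1 over all 20 libraries, and leaving out each library. Each library was taken as a separate mouse because no number in the sample titles repeats. The labels give no batch or date, so what lies behind the link of class and animal number cannot be told.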

Additional observations from a re-analysis of the deposited data

Results flagged for a closer look

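A library was singled out where its gap to the nearest other library of its class exceeded Dixon's 95% limit. Of 436 groups of values examined, 22 met this, about the 1 in 20 that chance would give on average. The groups are not independent, since the adrenal list mean, Star, Hsd3b1, Cyp11a1 and Mc2r all met it in both Dual 10 and Saline 2. How far chance would spread such a count is therefore not known. The count does not tell which gaps chance gave. The values are given as a description of these libraries. All values but one are variance-stabilized. Adrenal genes set 1 library apart in each class. In Dual 10 among the rich libraries the adrenal list mean was 12.32 (next 6.78), Star was 13.49, Hsd3b1 13.68, Cyp11a1 11.56 and Mc2r 8.53. In Saline 2 among the poor libraries the list mean was 12.97 (next 6.14), Star was 14.28, Hsd3b1 14.26, Cyp11a1 12.32 and Mc2r 8.92. Without both libraries 5422 genes were called in place of 5213, a setting chosen after seeing the data. Dual 10 also had the most assigned reads of the rich libraries (21.4 M, next 16.2 M), and Saline 2 the highest Ccr2 of the poor ones (10.45).

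LNA489 14 had, among the poor libraries, the highest Klf2 (11.19) and Tpm2 (12.27), and the lowest Cidea (10.63), Gpihbp1 (6.42) and Robo4 (5.30). LNA489 19 had the lowest immediate early list mean (7.82) and the highest Ccnb2 (8.24) of the rich libraries. HDL 3 had the highest Sele of the rich libraries (10.57) and HDL 4 the lowest of the poor ones (4.21). LNA489 7 had the lowest Hspa1a of the poor libraries (4.21). This value and that of Sele in HDL 4 stand for 0 reads. LNA489 7 also had the fewest genes with a read of the poor libraries (17378). Without it the classes differed by 758.5 genes with a read. The causes were not tested.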

How the results depend on the processing

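No called result changed direction under the 28 alternatives run. Medians near 0 changed sign when 1 library was left out for smooth muscle (-0.27 to 0.01), B and plasma cell (-0.19 to 0.24) and immediate early genes (-0.02 to 0.14). Genes called lower numbered 1633 on log2(FPKM + 0.1) and 1655 on log2(FPKM + 1), against 2682. Medians of lists moved as follows. On log2(FPKM + 0.1) they were 3.49 (arterial), -1.76 (capillary) and 0.54 (TGF-beta). With a mean of at least 2 FPKM, where fewer genes are tested, they were -1.70 (capillary), 1.23 (venous), -0.43 (lymphatic), 1.23 (ligands) and 0.88 (TGF-beta). With voom they were -2.27 (capillary), 1.30 (neutrophil) and 1.72 (erythroid and platelet). Apart from the alternatives named, the cause was not tested. Leaving out 1 library gave a receptor list median of 0.61 to 1.16, an adrenal median of -1.12 (without Dual 10) to 0.60 (without Saline 2), a difference in assigned reads of -3.47 M (without Dual 10, adjusted p = 0.0143 by the exact permutation test) to -2.05 M, and in genes with a read of 758.5 to 1383. With limits of 300 and 50 FPKM the difference in assigned reads was -3.89 M (exact permutation test, adjusted p = 0.049), and with Rn18s-rs5 left out of the totals that in genes with a read was 1391 (adjusted p = 0.0294). Of 186 named genes tested, 41 changed their call in at least 1 alternative. No paired analysis was possible because animal numbers differ between treatment groups. Thin expression limits genes near 1 FPKM, such as Prox1.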
